A study of Homo sapiens with 9 samples.

Results

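Interferon-stimulated genes were followed in MDA-MB-231, a breast cancer line that lacks hormone receptors, after CTDP1 was targeted with short hairpin RNAs. CTDP1 is a phosphatase acting on the tail of the large RNA polymerase II subunit. The set held 10 genes: IFIT1, IFIT2, IFIT3, IFIT5, OAS1, OAS2, OAS3, ISG15, MX1 and IFI44. The deposited tables list 57773 genomic intervals without gene names, so each gene was taken as the hg19 interval with the highest overlap over union with its span. All 10 were found among the 55527 intervals kept, with an overlap over union of 0.916 to 0.994, and all 10 were among the 15011 intervals tested. The lengths of these intervals were also close to those of the same genes in RefSeq (RefSeq over interval length 0.934 to 1.03), except for IFIT1 (1.21). The 3 groups were cells carrying the scrambled hairpin shScr, the CTDP1 hairpin shCTDP1-#1 or the CTDP1 hairpin shCTDP1-#2, with 3 libraries each. All 9 libraries came from cells infected with lentivirus made in 293FT cells and selected with puromycin, so every group, the control included, carried a viral vector and a hairpin RNA; cells without a hairpin were not analysed here. Whether the libraries of 1 group came from independent cultures is not given in the labels, and p-values therefore reflect the spread among these libraries, possibly a technical one.

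Type I and type III interferons signal through paired receptors and the kinases JAK1 and TYK2 to transcription factors that include STAT2 and IRF9. These bind the interferon-stimulated response element in the promoters of target genes, and many of those genes also have a basal level set by the same factors or by other IRF proteins. The products act against viral RNA and proteins: IFIT proteins bind viral RNA or translation factors, OAS enzymes make oligoadenylates that set off RNA decay, MX1 is a GTPase that traps viral nucleocapsids, and ISG15 is a ubiquitin-like protein that is joined to other proteins.

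The promoters are shown first because the response element is what these genes are known to share. The windows were not used to choose them. A set named for the interferon response can still be foreseen to hold the element, so the share of matches is a description and not independent support. RefSeq promoter windows on GRCh38.p14, from 250 bases before to 50 bases after a transcription start, were at hand for 8 of the 10 genes; IFIT2 and OAS2 were not in the table. The core GAAANNGAAA was searched on both strands (TTTCNNTTTC on the other). It was present in 7 of the 8 genes, all but OAS1, and in 10 of their 12 windows, against 1255 of all 35116 windows of the same length in the table (3.57%). Genes can have several windows, and counted by gene the share in the table was 4.38%. Both windows of IFI44 hold the same site, which is thus counted in each of them. The matches that follow are given 5′ to 3′ on the gene's strand with the core in capitals, for the 7 genes in which it was found; where a gene held several matches, 1 was picked for display by no fixed rule. They lie at chr10:89332463-89332502 (IFIT3, core starting 51 bases upstream of its second listed start), chr10:89392492-89392531 (IFIT1, 116 bases upstream), chr10:89414508-89414547 (IFIT5, 45 bases upstream), chr12:112938316-112938355 (OAS3, 143 bases upstream), chr1:1013375-1013414 (ISG15, 107 bases upstream), chr21:41420559-41420588 (MX1, 11 bases inside the transcript of its first listed start) and chr1:78649756-78649795 (IFI44, 60 bases upstream of its second listed start). All 7 genes are on the plus strand.
IFIT3: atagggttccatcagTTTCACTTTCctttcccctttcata
IFIT1: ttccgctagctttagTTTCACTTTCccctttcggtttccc
IFIT5: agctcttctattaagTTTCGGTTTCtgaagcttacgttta
OAS3: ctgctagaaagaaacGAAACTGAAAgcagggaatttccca
ISG15: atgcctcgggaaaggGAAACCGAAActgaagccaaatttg
MX1: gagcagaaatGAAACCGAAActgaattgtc
IFI44: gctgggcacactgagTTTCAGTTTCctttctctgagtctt
Over all matches, read without regard to strand, GAAACCGAAA was present in 4 genes (IFIT1, IFIT5, ISG15 and MX1) and GAAACTGAAA in 4 (IFIT3, IFIT5, OAS3 and IFI44). GAAAGTGAAA was present in IFIT1 and IFIT3. IFIT5 held 3 matches, and the 2 matches of ISG15 overlap each other. A match is a description of these letters, not evidence of binding. Cores with another spacing, or outside the windows, were not searched, so a missing match does not show that a gene such as OAS1 lacks the element.

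**Figure D1:**
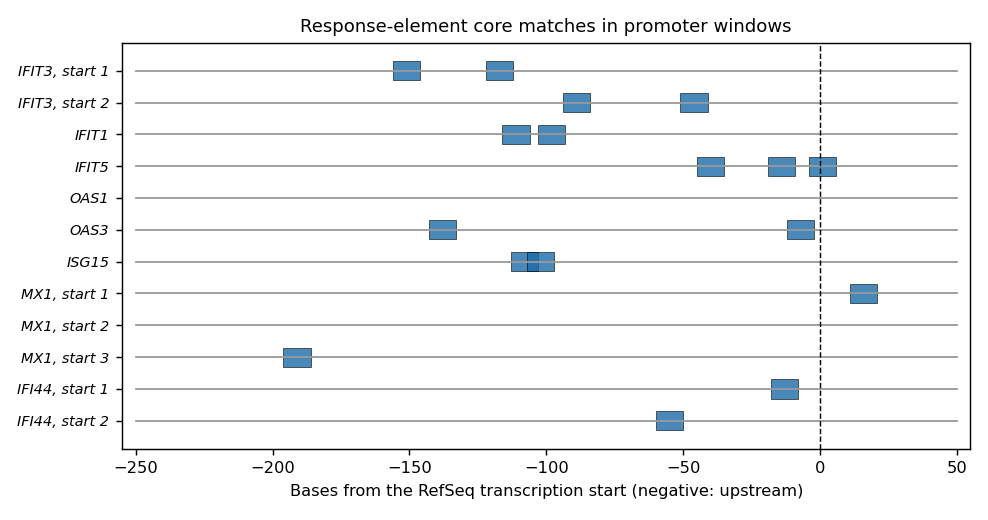
Positions of the core in each RefSeq promoter window of 8 of the genes, in bases from the transcription start (dashed line, negative values upstream); each grey line is a window and each blue box a match on either strand. IFIT3, IFI44 and MX1 have several listed starts; OAS1 and the second start of MX1 have no match.

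Values are TPM, transcripts per 1000000, as deposited, a unit scaled for transcript length that allows levels of different genes to be compared. TPM keeps no total count, so depth is unknown. Changes are differences of log2(TPM + 1) from a limma fit across all tested intervals, given with the SE, and a gene is called higher or lower where the Benjamini-Hochberg adjusted p is under 0.05. The targeted gene was lower in all 6 knockdown libraries: CTDP1 was at 12.5 ± 0.5 TPM (SD, n = 3) with shScr, 2.51 ± 0.09 with shCTDP1-#1 and 3.76 ± 0.34 with shCTDP1-#2. Of the cell line's markers, ESR1 and PGR were at no more than 0.27 TPM and CDH1 at no more than 1.08 TPM in any library. ERBB2 and EPCAM had also been listed as low in this line. With shScr they were well above these levels, at 25.1 to 28.9 TPM and 6.16 to 9.81 TPM. VIM and CD44 were high in all 9 libraries. VIM fell from 3576 ± 60 TPM with shScr (SD, n = 3) to 1480 ± 51 TPM with shCTDP1-#1 and 2069 ± 63 TPM with shCTDP1-#2 (-1.27, adjusted p = 1.2e-09, and -0.79, adjusted p = 2.8e-08). CD44 fell by 0.26 with shCTDP1-#1 (adjusted p = 0.00019) and rose by 0.15 with shCTDP1-#2 (adjusted p = 0.0077), the latter not called after either scaling (0.053 and 0.046). ERBB2 was at -0.016 (adjusted p = 0.86) and fell by 0.86 (adjusted p = 2.8e-06) in that order. EPCAM rose by 0.48 with shCTDP1-#1 (adjusted p = 0.024) and was at -0.09 (adjusted p = 0.65) with shCTDP1-#2. The former call was lost without shScr replicate 1 or 2 or shCTDP1-#1 replicate 1 or 3 (adjusted p = 0.053 to 0.091) and with no filter on low values (0.056). The part of these marker changes in the results on the 10 genes was not tested. Intervals of the mitochondrial genome held 4.49% of the summed TPM of shScr replicate 1 and 1.12% to 2.29% in the other libraries; without that library the calls of the 10 genes kept their counts in all 3 comparisons.

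The 10 genes did not move as a block. With shCTDP1-#1, 6 of the 10 were lower (IFIT1, IFIT2, IFIT3, IFIT5, OAS3 and IFI44) and 2 were higher (MX1 and OAS2). Over all tested intervals 27.7% were called lower and 35.4% higher (63.1% in either direction), so lower calls were more frequent among the 10 genes than among all intervals, and higher calls less frequent. No test of that difference was made, and the genes were chosen with earlier results of these data known. With shCTDP1-#2, 3 of the 10 were lower (IFIT1, IFIT5 and IFI44) and 3 were higher (MX1, ISG15 and OAS2), near the 24.6% and 39.5% of all tested intervals (64.0% in either direction). After median-of-ratios scaling the split with shCTDP1-#2 was 4 lower and 2 higher. The shares of all tested intervals after that scaling are not given here. The median change of the 10 genes was -0.54 with shCTDP1-#1 and -0.02 with shCTDP1-#2, against 0.07 and 0.13 over all tested intervals. Both comparisons use the same 3 shScr libraries.

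**Figure D2:**
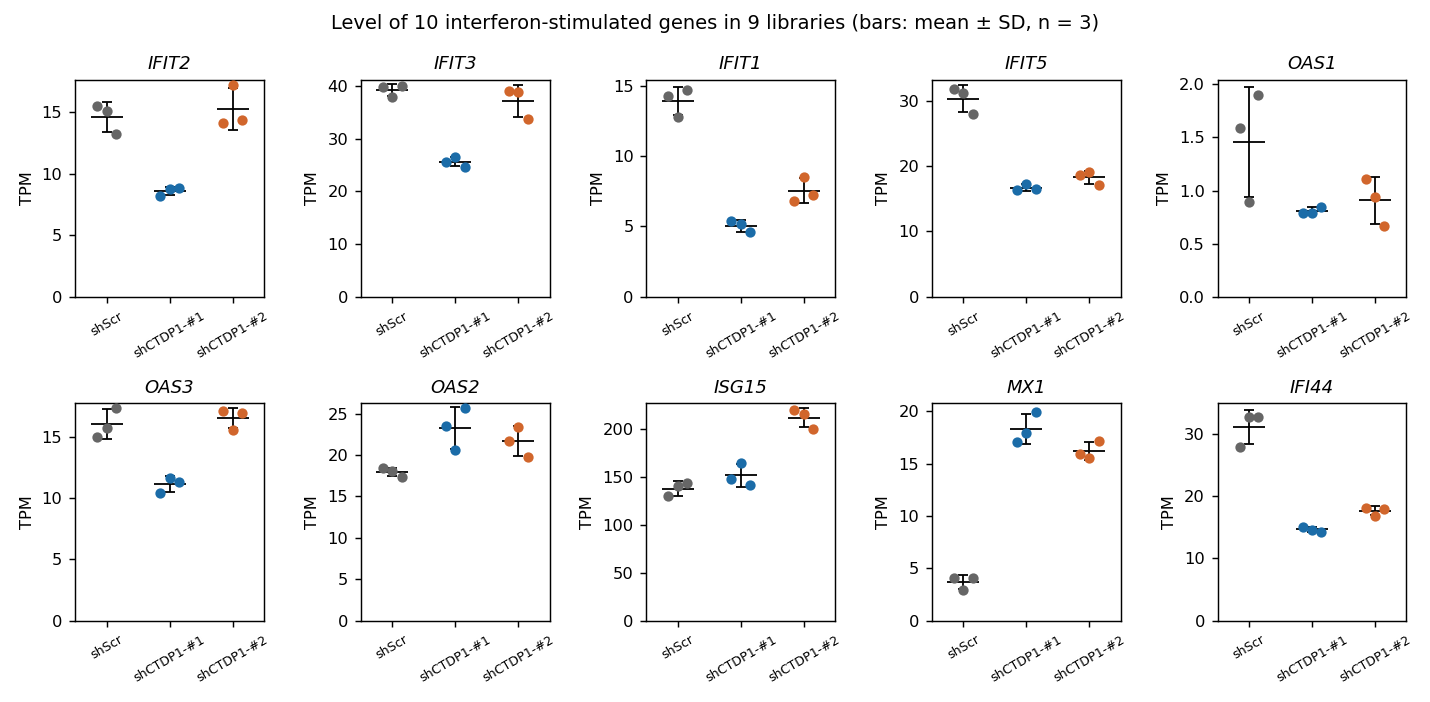
TPM of each gene (vertical axis, starting at 0) in the 3 libraries of each group; points are libraries and bars the mean ± SD. MX1 is at 2.91 to 4.11 TPM with shScr and at 15.5 to 19.9 TPM in the 6 knockdown libraries, while IFIT1, IFIT5 and IFI44 are lower in all 6.

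**Figure D3:**
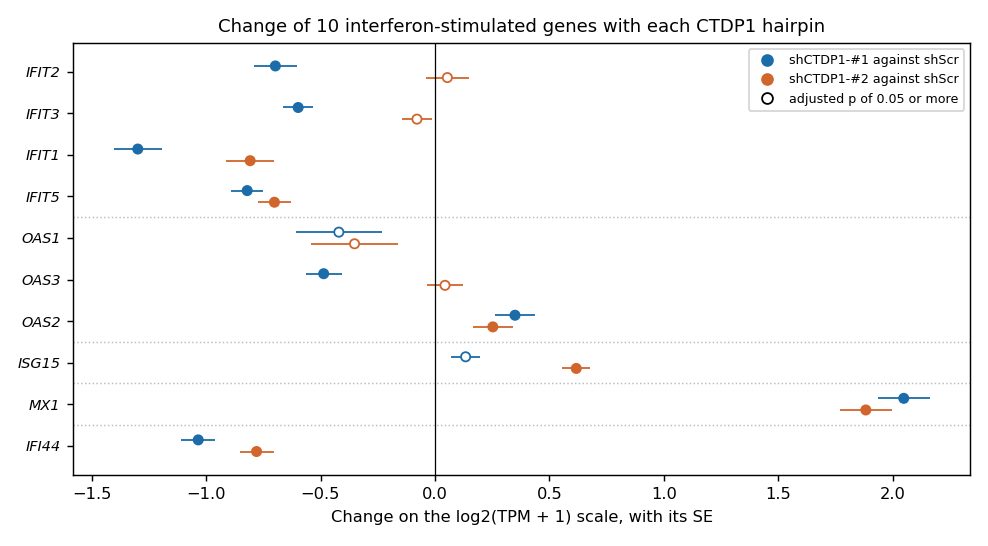
Change of each gene against shScr on the log2(TPM + 1) scale, with the SE, for shCTDP1-#1 (blue) and shCTDP1-#2 (orange); open points have an adjusted p of 0.05 or more. MX1 stands at 2.05 and 1.88 and IFIT1 at -1.30 and -0.81, with the other genes between them.

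The IFIT genes encode tetratricopeptide-repeat proteins that bind viral or host RNA, and lie side by side on chromosome 10. IFIT1 (chr10:91152303-91163745), which recognises viral RNA caps, was at 14.3, 12.8 and 14.7 TPM with shScr, at 5.42, 5.17 and 4.60 TPM with shCTDP1-#1 and at 6.83, 8.53 and 7.25 TPM with shCTDP1-#2. Every knockdown library was below every shScr library, and the 3 groups did not overlap. IFIT1 fell by 1.30 (SE 0.10, adjusted p = 1.8e-06) with shCTDP1-#1 and by 0.81 (SE 0.10, adjusted p = 6.2e-05) with shCTDP1-#2.

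IFIT5 (chr10:91174343-91180758), an RNA-binding relative, was at 31.9, 31.2 and 28.0 TPM with shScr, 16.4, 17.3 and 16.5 TPM with shCTDP1-#1 and 18.6, 19.04 and 17.1 TPM with shCTDP1-#2. Both knockdown groups lay below shScr and overlapped each other. The gene fell by 0.82 (SE 0.07, adjusted p = 2.9e-06) and by 0.70 (SE 0.07, adjusted p = 9.7e-06) with the hairpins in that order.

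IFIT2 and IFIT3, which form complexes with IFIT1, were lower with shCTDP1-#1 alone. IFIT2 (chr10:91061712-91069033) was at 15.5, 15.1 and 13.2 TPM with shScr, 8.22, 8.80 and 8.82 TPM with shCTDP1-#1 and 14.1, 17.2 and 14.4 TPM with shCTDP1-#2. IFIT3 (chr10:91087651-91100728) was at 39.9, 37.9 and 39.9 TPM, then 25.6, 26.5 and 24.7 TPM, then 38.9, 38.8 and 33.7 TPM. For both genes all shCTDP1-#1 libraries were below all others, and the shCTDP1-#2 libraries overlapped those of shScr. With shCTDP1-#1, IFIT2 fell by 0.70 (SE 0.09, adjusted p = 8.6e-05) and IFIT3 by 0.60 (SE 0.06, adjusted p = 1.7e-05). With shCTDP1-#2 the change of IFIT2 was 0.05 (95% confidence interval -0.16 to 0.26) and that of IFIT3 was -0.08 (-0.22 to 0.07). After median-of-ratios scaling the change of IFIT2 with shCTDP1-#2 was -0.040 and IFIT3 was called lower, at -0.18 (adjusted p = 0.043). After upper-quartile scaling IFIT2 was at -0.033.

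Summed over the 4 IFIT genes, the level was 98.1 ± 3.0 TPM with shScr (SD, n = 3), 56.0 ± 1.6 TPM with shCTDP1-#1 and 78.2 ± 5.6 TPM with shCTDP1-#2. In each of these groups IFIT3 had the highest and IFIT1 the lowest level of the 4.

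The OAS genes encode oligoadenylate synthetases that are activated by viral RNA and lie next to each other on chromosome 12. OAS3 (chr12:113376157-113411054), the longest of these synthetases, was at 15.02, 15.8 and 17.4 TPM with shScr, 10.48, 11.7 and 11.4 TPM with shCTDP1-#1 and 17.1, 15.6 and 17 TPM with shCTDP1-#2. All shCTDP1-#1 libraries were below all others. OAS3 fell by 0.49 (SE 0.08, adjusted p = 0.00033) with shCTDP1-#1, while its change with shCTDP1-#2 was 0.04 (95% confidence interval -0.13 to 0.22). That value was -0.044 after upper-quartile and -0.051 after median-of-ratios scaling.

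OAS2 (chr12:113416200-113449528) went the other way. It was at 18.4, 18.1 and 17.4 TPM with shScr, 23.5, 20.6 and 25.7 TPM with shCTDP1-#1 and 21.8, 23.4 and 19.8 TPM with shCTDP1-#2. Every knockdown library was above every shScr library. OAS2 rose by 0.35 (SE 0.09, adjusted p = 0.0055) with shCTDP1-#1 and by 0.25 (SE 0.09, adjusted p = 0.028) with shCTDP1-#2. The call with shCTDP1-#2 was lost after upper-quartile scaling (0.16, adjusted p = 0.12) and after median-of-ratios scaling (0.16, adjusted p = 0.13). It was also lost without shScr replicate 2 (adjusted p = 0.057), shScr replicate 3 (0.079), shCTDP1-#2 replicate 1 (0.065) or shCTDP1-#2 replicate 2 (0.10). With no filter on low values it was lost too (adjusted p = 0.058).

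OAS1 (chr12:113344582-113369990) was the least abundant of the 10 genes in every group. Its level was 1.59, 0.89 and 1.90 TPM with shScr, 0.79, 0.79 and 0.85 TPM with shCTDP1-#1 and 1.11, 0.94 and 0.67 TPM with shCTDP1-#2. The shCTDP1-#1 libraries lay just below the lowest shScr library, and the shCTDP1-#2 libraries overlapped shScr. Neither change passed the test, at -0.42 (SE 0.19, adjusted p = 0.075) and -0.35 (SE 0.19, adjusted p = 0.13). Without shScr replicate 2, the low shScr library, both were called, at -0.60 (adjusted p = 0.018) and -0.53 (adjusted p = 0.031). Over the 3 OAS genes the summed level was 35.5 ± 1.1 TPM with shScr (SD, n = 3), 35.3 ± 2.4 TPM with shCTDP1-#1 and 39.1 ± 1.4 TPM with shCTDP1-#2.

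ISG15 (chr1:948803-949920), the ubiquitin-like modifier, was the most abundant of the 10 genes. It was at 130, 141 and 144 TPM with shScr, 148, 165 and 142 TPM with shCTDP1-#1 and 220, 217 and 201 TPM with shCTDP1-#2. All shCTDP1-#2 libraries were above all others, and those of shCTDP1-#1 overlapped shScr. ISG15 rose by 0.62 (SE 0.06, adjusted p = 9.7e-06) with shCTDP1-#2. With shCTDP1-#1 its change was 0.13 (SE 0.06, adjusted p = 0.082), which was called without shCTDP1-#1 replicate 3 (0.18, adjusted p = 0.039). Its share of the summed TPM of the 10 genes was 45.1% ± 1.3 with shScr (SD, n = 3), 54.97% ± 2.2 with shCTDP1-#1 and 58.4% ± 0.5 with shCTDP1-#2.

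MX1 (chr21:42792231-42831141), the antiviral GTPase, had the largest change of the 10 genes in either direction with either hairpin. It was at 4.05, 2.91 and 4.11 TPM with shScr, 17.1, 17.9 and 19.9 TPM with shCTDP1-#1 and 15.9, 15.5 and 17.1 TPM with shCTDP1-#2. Every knockdown library was above every shScr library by a wide margin. The mean TPM was 4.95-fold that of shScr with shCTDP1-#1 and 4.38-fold with shCTDP1-#2. On the log2 scale MX1 rose by 2.05 (SE 0.11, adjusted p = 1.2e-07) and by 1.88 (SE 0.11, adjusted p = 2.3e-07). It was the only one of the 10 genes called higher against a fold change of 1.5, and it was so with both hairpins. The share of all tested intervals called in that test is not given here.

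IFI44 (chr1:79115481-79129763), a cytoplasmic protein whose biochemical role is not well defined, was at 27.9, 32.7 and 32.6 TPM with shScr, 15, 14.6 and 14.3 TPM with shCTDP1-#1 and 18.1, 16.8 and 17.98 TPM with shCTDP1-#2. The 3 groups did not overlap. IFI44 fell by 1.03 (SE 0.07, adjusted p = 8.2e-07) and by 0.78 (SE 0.07, adjusted p = 6.7e-06) with the hairpins in that order.

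By mean level with shScr, the order was ISG15, IFIT3, IFI44, IFIT5, OAS2, OAS3, IFIT2, IFIT1, MX1 and OAS1. IFI44 and IFIT5 (31.1 ± 2.8 and 30.3 ± 2.1 TPM, SD, n = 3) overlapped, as did OAS2 and OAS3 (17.98 ± 0.52 and 16.1 ± 1.2 TPM), OAS3 and IFIT2 (14.6 ± 1.2 TPM), and IFIT2 and IFIT1 (13.9 ± 1.0 TPM). Among all tested intervals the shScr means ran from percentile 13.6 for OAS1 and 24.5 for MX1 to 91.5 for ISG15. MX1 was ninth with shScr, below IFIT1 and IFIT2, and was above both of them with either CTDP1 hairpin, although with shCTDP1-#2 it overlapped IFIT2. IFIT1 moved to the ninth place in both knockdown groups.

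The hairpins differed from each other in 6 of the 10 genes. IFIT1, IFIT2, IFIT3, OAS3, ISG15 and IFI44 were higher with shCTDP1-#2 than with shCTDP1-#1, and none was lower; of all tested intervals 50.2% differed and 30.2% were higher. The difference was 0.75 for IFIT2 (SE 0.09, adjusted p = 8.3e-05), 0.52 for IFIT3 (SE 0.06, adjusted p = 8.3e-05), 0.53 for OAS3 (SE 0.08, adjusted p = 0.00028) and 0.48 for ISG15 (SE 0.06, adjusted p = 9.7e-05). It was 0.49 for IFIT1 (SE 0.10, adjusted p = 0.0026) and 0.25 for IFI44 (SE 0.07, adjusted p = 0.015). The IFI44 difference did not pass after upper-quartile scaling (0.15, adjusted p = 0.14) or median-of-ratios scaling (0.19, adjusted p = 0.061). For the other genes the 95% confidence intervals of the difference were -0.42 to 0.09 for MX1, -0.29 to 0.10 for OAS2, -0.04 to 0.28 for IFIT5 and -0.35 to 0.49 for OAS1. CTDP1 was also higher with shCTDP1-#2 than with shCTDP1-#1, by 0.44 (SE 0.10, adjusted p = 0.0036); its part in these differences was not tested.

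Neighbouring and overlapping intervals were read beside each locus. An interval of 200989 bases (chr10:90973326-91174314) overlaps IFIT2, IFIT3 and IFIT1. It rose from 35.8 ± 1.2 TPM with shScr (SD, n = 3) to 53.6 ± 1.5 TPM with shCTDP1-#1 and 49.9 ± 4.7 TPM with shCTDP1-#2, the opposite direction to IFIT1. The library kit does not mark strand, so reads shared by overlapping genes cannot be told apart by strand. The interval that overlaps all 3 OAS genes and the one inside MX1 were listed at 0 TPM in all 9 libraries. IFIT1B, between IFIT3 and IFIT1, was at 0.04 to 0.05 TPM with shScr and 0.20 to 0.44 TPM in the knockdown libraries, too low to be tested.

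The flanks moved with some loci and against others. Beside ISG15, the interval chr1:955503-991496, which starts 5583 bases beyond it, rose with both hairpins, by 0.35 (SE 0.09, adjusted p = 0.0052) and 0.76 (SE 0.09, adjusted p = 2.6e-05). On the other side, chr1:934342-935552 rose by 1.01 (SE 0.16, adjusted p = 0.00025) and 1.02 (SE 0.16, adjusted p = 0.00024). MX2, which lies 10914 bases from MX1 and encodes the related GTPase of the nuclear pore, was at 0.81 to 2.18 TPM and passed with neither hairpin (0.09, adjusted p = 0.74, and -0.21, adjusted p = 0.45). IFI44L, 3651 bases from IFI44, fell by 0.41 (SE 0.16, adjusted p = 0.043) and 0.57 (SE 0.16, adjusted p = 0.0089). Its call with shCTDP1-#1 was lost without any single library of shScr or shCTDP1-#1 (adjusted p = 0.055 to 0.13). That call was also lost with a pseudocount of 0.1 TPM (adjusted p = 0.066) and with no filter on low values (0.055). The nearest tested interval below the OAS genes (chr12:112856155-112947717) fell by 0.64 (SE 0.05, adjusted p = 1.6e-06) with shCTDP1-#1 and was at -0.10 (SE 0.05, adjusted p = 0.12) with shCTDP1-#2, a value called after both scalings (-0.19 and -0.20) and without shScr replicate 3 (-0.15, adjusted p = 0.013). That above them (chr12:113594979-113623284) fell by 0.36 (SE 0.06, adjusted p = 0.0004) and 0.61 (SE 0.06, adjusted p = 8.9e-06). These OAS flanks are distant, at 396865 and 145451 bases from the genes. Around the IFIT genes, the nearest tested intervals (chr10:91043522-91051882 and chr10:91190051-91316398) rose with shCTDP1-#1, by 0.87 (SE 0.23, adjusted p = 0.0074) and 0.64 (SE 0.20, adjusted p = 0.016); the latter call was lost without shScr replicate 1 or shCTDP1-#1 replicate 1 or 3 (adjusted p = 0.059 to 0.063). With shCTDP1-#2 they were at 0.36 (adjusted p = 0.21) and -0.34 (adjusted p = 0.16). Both IFIT flanks were low, at 1.44 to 5.75 TPM and 0.44 to 2.57 TPM over the libraries. The former lies inside the interval of 200989 bases described above, so its reads may be shared with it. The remaining flanks of MX1 and IFI44 lie 328388 and 2642082 bases away. That of MX1 (chr21:43159529-43187266) was at 0.20 (adjusted p = 0.087) with shCTDP1-#1 and rose by 0.29 (SE 0.09, adjusted p = 0.018) with shCTDP1-#2, a call lost after both scalings (adjusted p = 0.078 and 0.082) and without shScr replicate 1 (0.058) or shCTDP1-#2 replicate 2 (0.060). That of IFI44 (chr1:81771845-82458120) fell with both hairpins, as IFI44 did, by 0.50 (SE 0.08, adjusted p = 0.00039) and 0.95 (SE 0.08, adjusted p = 3.8e-06).

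A list of 56 other genes of the interferon pathway, also chosen with earlier results of these data known, was set beside the 10. Of these, 54 matched an interval by the same rule with spans written from memory (DHX58 and TRIM22 did not) and 49 were tested. With shCTDP1-#1, 26 of the 49 were higher and 8 lower. With shCTDP1-#2, 23 were higher and 6 lower, or 19 and 9 after upper-quartile and 18 and 9 after median-of-ratios scaling. Without scaling, the shares over all tested intervals are those given above, 35.4% and 27.7% with shCTDP1-#1 and 39.5% and 24.6% with shCTDP1-#2. The shares after scaling are not given here. With shCTDP1-#2 the median change of all tested intervals went from 0.13 to 0.050 after upper-quartile and 0.044 after median-of-ratios scaling. The list's median change was 0.26 with shCTDP1-#1 and 0.20 with shCTDP1-#2. The promoter core was found in 20 of the 42 listed genes with a window. Among tested genes of both sets with a window, it was found in 4 of the 5 that were lower with both hairpins. It was found in 10 of the 16 that were higher with both and in 11 of the 24 with neither pattern. Of all tested intervals, 16.5% were lower and 26.4% higher with both hairpins. IFIT1, IFIT5 and IFI44 are among the 5 and MX1 is among the 16, so their matches were already counted above. A link between the core and the direction of change was not tested.

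**Figure D4:**
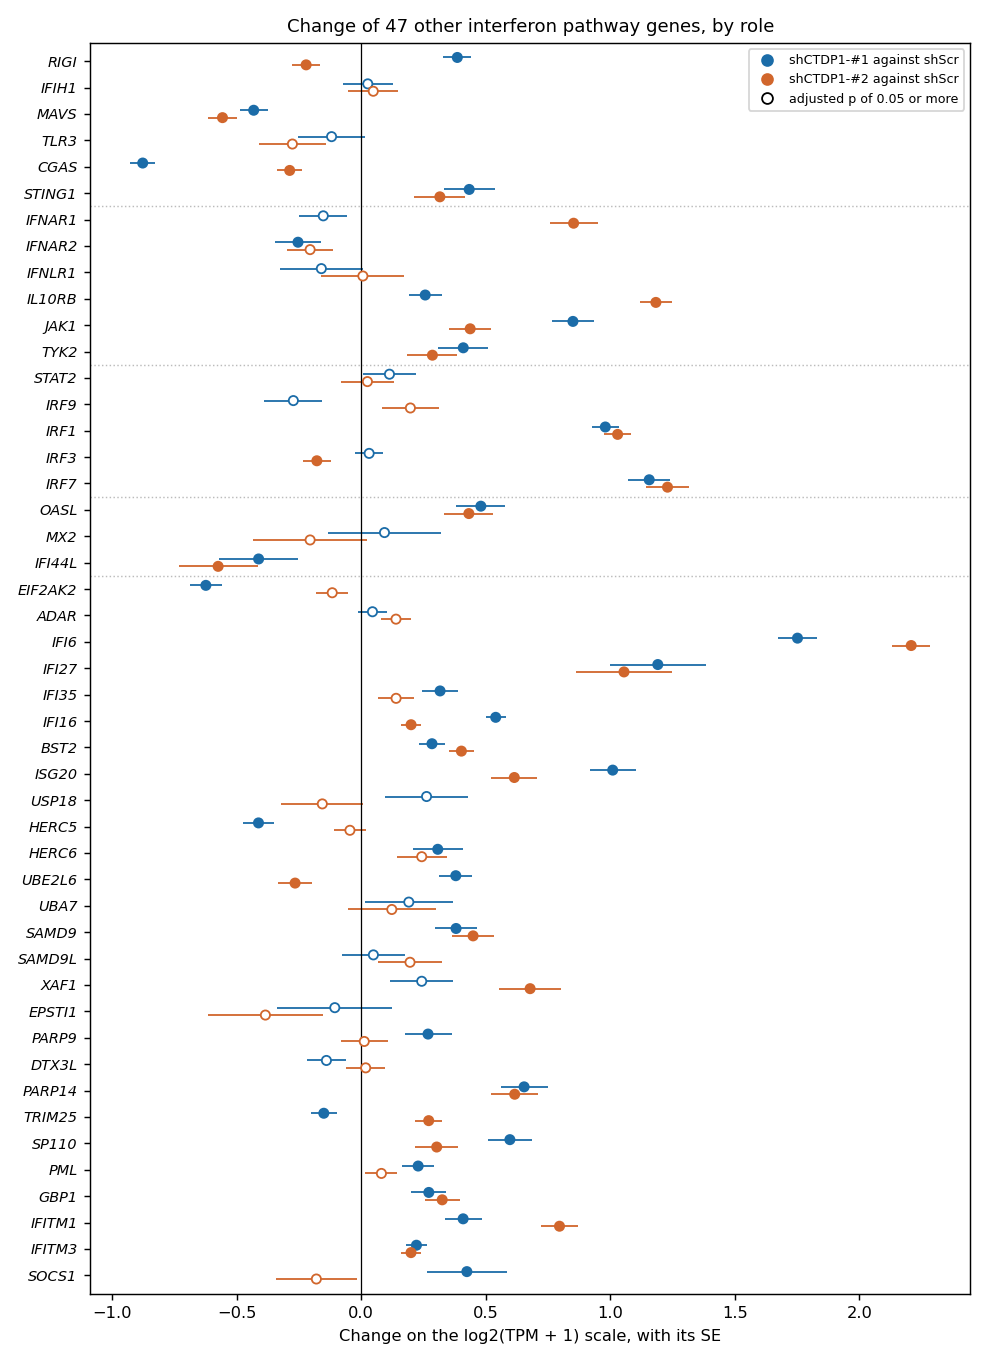
Change of 47 tested pathway genes against shScr on the log2(TPM + 1) scale, with the SE, by role from sensors at the top through receptors and kinases, transcription factors and close relatives to other effectors; open points have an adjusted p of 0.05 or more. IFI6 lies farthest to the right with both hairpins, and RIGI, UBE2L6 and TRIM25 have called changes of opposite sign.

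Only IFNB1 and IFNL1 were looked up among the interferons, and both were near or at 0. IFNB1, the type I interferon of most non-immune cells, was listed at 0 TPM in all 9 libraries, and IFNL1, a type III interferon, at 0 to 0.24 TPM. RSAD2, the antiviral enzyme viperin, was at 0 to 0.30 TPM and was not tested. Of the sensors, RIGI (cytoplasmic viral RNA) was higher with shCTDP1-#1, by 0.39 (SE 0.06, adjusted p = 0.00014), and lower with shCTDP1-#2 (-0.22, SE 0.06, adjusted p = 0.0053). IFIH1, a sensor of long RNA duplexes, was at 4.16 to 4.94 TPM in all libraries and passed with neither. MAVS, the adaptor of both, fell by 0.43 (SE 0.06) and 0.56 (SE 0.06). CGAS, the sensor of cytoplasmic DNA, fell by 0.88 (SE 0.05) and 0.29 (SE 0.05), and STING1, its adaptor, rose by 0.43 (SE 0.10) and 0.32 (SE 0.10). The latter call was lost after upper-quartile (0.23, adjusted p = 0.077) and median-of-ratios scaling (0.22, adjusted p = 0.087), and without shScr replicate 1 (adjusted p = 0.077) or shCTDP1-#2 replicate 2 (0.066).

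Receptor and factor genes also divided. IFNAR1, a chain of the type I receptor, rose from 37.2 ± 4.6 TPM with shScr (SD, n = 3) to 67.7 ± 4.1 TPM with shCTDP1-#2 (0.85, SE 0.10, adjusted p = 2.4e-05) and was at 33.3 ± 3.5 TPM with shCTDP1-#1 (-0.15, adjusted p = 0.19). IFNAR2, the other chain, fell by 0.25 (SE 0.09, adjusted p = 0.033) with shCTDP1-#1 and was at -0.21 (adjusted p = 0.074) with shCTDP1-#2. The IFNAR2 call was lost without shScr replicate 1 or 2 or shCTDP1-#1 replicate 2 or 3 (adjusted p = 0.082 to 0.094) and with no filter on low values (0.054). Its change with shCTDP1-#2 was called after both scalings (-0.29 and -0.30) and without shCTDP1-#2 replicate 2 (adjusted p = 0.047). JAK1 rose by 0.85 (SE 0.08) and 0.44 (SE 0.08). STAT2 passed with neither (0.11, adjusted p = 0.37, and 0.02, adjusted p = 0.85), nor did IRF9 (-0.27, adjusted p = 0.062, and 0.20, adjusted p = 0.16). STAT2 was called higher with shCTDP1-#1 without shScr replicate 1 (0.23, adjusted p = 0.044), and after both scalings its value with shCTDP1-#2 turned negative. IRF9 was called lower with shCTDP1-#1 without shScr replicate 2 (-0.42, adjusted p = 0.0014) and after median-of-ratios scaling (-0.30, adjusted p = 0.043). IRF7, an interferon-inducible factor, rose by 1.16 (SE 0.09, adjusted p = 9.7e-07) and 1.23 (SE 0.09, adjusted p = 6.5e-07), and IRF1 by 0.98 (SE 0.05) and 1.03 (SE 0.05).

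RIGI, UBE2L6 and TRIM25 passed the test under each hairpin but with opposite signs, as did 5.43% of all tested intervals and none of the 10 genes. The lower call of TRIM25 with shCTDP1-#1 (-0.15) was lost without shScr replicate 2 (-0.092, adjusted p = 0.11) or shCTDP1-#1 replicate 1 (adjusted p = 0.10) or 2 (0.071). That call was also lost with no filter on low values (adjusted p = 0.060) and in a fit of only the 2 groups compared (0.053). Among effectors, IFI6, a mitochondrial and endoplasmic reticulum protein, had the largest change. It was at 26.5, 31.2 and 33.2 TPM with shScr, 102, 108 and 102 TPM with shCTDP1-#1 and 143, 152 and 135 TPM with shCTDP1-#2, and its 3 groups did not overlap. IFI6 rose by 1.75 (SE 0.08, adjusted p = 2.7e-08) and 2.21 (SE 0.08, adjusted p = 8.1e-09). IFI27, another small membrane protein, rose by 1.19 (SE 0.19, adjusted p = 0.00037) and 1.06 (SE 0.19, adjusted p = 0.00083). The exonuclease ISG20 rose by 1.01 (SE 0.09) and 0.61 (SE 0.09), and PARP14, an ADP-ribosyltransferase, by 0.65 (SE 0.09) and 0.62 (SE 0.09). OASL, an OAS relative without synthetase activity, rose by 0.48 (SE 0.10) and 0.43 (SE 0.10). SAMD9 rose by 0.38 (SE 0.08) and 0.45 (SE 0.08), and the nuclear body protein SP110 by 0.60 (SE 0.09) and 0.30 (SE 0.09); after median-of-ratios scaling the latter was 0.21, at the threshold. The membrane protein IFITM1, which hinders virus entry, rose by 0.41 (SE 0.07) and 0.80 (SE 0.07); a larger interval overlaps it and its relatives are near-identical, so its level is uncertain.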

How the data were processed

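RNA of 9 MDA-MB-231 libraries was profiled. The submitters' processing notes name STAR, RSEM and the build hg19, with neither versions nor an annotation. The authors deposited TPM with 2 decimals for each interval. No counting interval is given because TPM keeps no depth. Tables were joined on coordinates, and 2246 rows that shared an interval were left out (0.355% to 0.391% of a library's TPM).

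Intervals reaching 1 TPM in 3 or more libraries were tested on log2(TPM + 1), a scale that understates changes of low genes. The fit used limma 3.58.1 (R 4.3.3, statmod 1.5.0) with an intensity trend and robust variances. It held all 9 libraries as 3 group means with 6 residual degrees of freedom, and p-values were adjusted by Benjamini-Hochberg over all 15011. It was tested on simulated data.

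The 10 genes and all lists were chosen with earlier results of these data known. Pathway genes were named by spans written from memory, at an overlap over union of at least 0.5. Some matches were less close than those of the 10 genes. The overlap over union was 0.741 for MAVS. RefSeq over interval length was 1.34 for MAVS, 1.76 for JAK1, 0.738 for CGAS and 0.417 for the marker EPCAM. Another interval also overlapped the spans of IFNAR2 and IRF9 (overlap over union 0.355 and 0.34). Named in the text by rule were all 10 genes, 14 pathway genes fixed by name and the nearest tested flanks. The rule added up to 12 more genes called with both hairpins in the same direction without overlap with shScr, ranked by the smaller change. EIF2AK2, HERC5, UBE2L6, UBA7, USP18 and TRIM25 were named outside this rule. Some genes of the list are counted but not reported by name here. No interval matched the leukocyte or the endothelial marker, which were not analysed here. Alternatives were a pseudocount of 0.1 TPM, no filter, 2 scalings, fits of 2 groups, a replicate block, a test against a fold change of 1.5 and each library left out.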

Additional observations from a re-analysis of the deposited data

Results flagged for a closer look

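For 6 of the 10 genes and 13 named pathway genes the response to the hairpins was unequal by limma's test of the difference itself. As log2 differences, shCTDP1-#2 minus shCTDP1-#1, these were 0.75 for IFIT2, 0.52 for IFIT3, 0.49 for IFIT1, 0.53 for OAS3, 0.48 for ISG15 and 0.25 for IFI44. Among the sensors, receptors and kinases they were -0.61 for RIGI, 0.59 for CGAS, 1.01 for IFNAR1 and -0.41 for JAK1. The factor IRF9 had 0.47, and the effectors IFI6, ISG20, SP110 and IFITM1 had 0.46, -0.40, -0.29 and 0.39. For EIF2AK2, HERC5, UBE2L6 and TRIM25, named outside the rule given above, the differences were 0.51, 0.37, -0.65 and 0.42. Among the targeted gene and the cell line markers they were 0.44 for CTDP1, 0.48 for VIM, 0.41 for CD44, -0.85 for ERBB2 and -0.57 for EPCAM, the last lost without shCTDP1-#1 replicate 1 (adjusted p = 0.053). Among the flanks they were -0.98 for chr10:91190051-91316398, 0.54 for chr12:112856155-112947717, -0.25 for chr12:113594979-113623284, 0.41 for chr1:955503-991496 and -0.45 for chr1:81771845-82458120. The SP110 difference was lost without shCTDP1-#2 replicate 1 (-0.26, adjusted p = 0.060). Of all tested intervals, 50.2% differed between the hairpins in either direction, so such a difference is common in these libraries. Over the whole pathway list 20 of the 49 tested genes differed (40.8%), a smaller share. The remaining level of CTDP1 differed too, and its part was not tested.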

How the results depend on the processing

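Under 16 alternatives, of 192 recomputed counts 178 stayed within 1.5 times the main count, and of 2192 recomputed changes of named genes and flanks, 2019 kept their direction and side of the threshold. Against a fold change of 1.5, which asks for larger changes, 1 of the 10 genes was higher and 3 lower for shCTDP1-#1. The counts were 1 and 0 for shCTDP1-#2, and 0 were higher between the hairpins. Of the pathway genes 6 were higher and 1 lower, 4 and 0, and 2 and 0 in the same order. Shares of all tested intervals under this and the other alternatives are not given here. Counts under the alternatives therefore cannot be set against the shares of the main fit. With no filter, 5 pathway genes were lower with shCTDP1-#1. After upper-quartile scaling, 14 pathway genes were lower and 11 higher with shCTDP1-#2 than with shCTDP1-#1, against 9 and 11; upper-quartile scaling moved the median of all intervals in that comparison by -0.10 (log2). The change of IFIT2 with shCTDP1-#2 turned to -0.033 after upper-quartile and -0.040 after median-of-ratios scaling, and ranged from -0.031 (without shCTDP1-#2 replicate 2; -0.011 without shScr replicate 3) to 0.10 with single libraries left out. That of OAS3 turned to -0.044 and -0.051 under these scalings and ranged from -0.00063 (without shScr replicate 1) to 0.10. The OAS1 difference between the hairpins ranged from -0.0079 (without shCTDP1-#2 replicate 1) to 0.16. With shCTDP1-#2, upper-quartile and median-of-ratios scaling turned IFIH1 to -0.027 and -0.034 and STAT2 to -0.065 and -0.072; with single libraries left out STAT2 ranged from -0.062 to 0.14, MX2 from -0.36 to 0.036 and UBA7 from -0.039 to 0.27. With shCTDP1-#1, MX2 ranged from -0.064 to 0.33 and IFIH1 from -0.037 to 0.064, and ERBB2 turned to 0.0018 after upper-quartile scaling and ranged from -0.056 to 0.042. EPCAM with shCTDP1-#2 ranged from -0.24 to 0.058. None of these reversed values was called, and the cause was not tested.

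With single libraries left out, 2 to 3 of the 10 genes passed as higher and 6 to 7 as lower for shCTDP1-#1, and 2 to 3 and 3 to 4 for shCTDP1-#2; between the hairpins the counts stayed at 6 and 0. For the pathway genes it gave 23 to 26 and 5 to 8 (5 without shCTDP1-#1 replicate 2), 22 to 25 and 6 to 8, and 10 to 12 and 8 to 10. Replicate numbers recur in each group, but whether they pair the libraries is not given in the labels. Residuals of same-numbered libraries had correlations of -0.007 to 0.053, against -0.046 to 0.024 for libraries with unlike numbers. For 8 of 9 libraries the best match carried the same number. The main fit did not pair the libraries, and whether same-numbered libraries share an origin was not tested. With the replicate block, the 10 genes gave 2 higher and 6 lower calls for shCTDP1-#1, 3 and 3 for shCTDP1-#2, and 6 and 0 between the hairpins. With the block, IRF9 was called lower for shCTDP1-#1 (-0.27, adjusted p = 0.019) and the call of IFI44L there was lost (adjusted p = 0.064). Between the hairpins the block changed the calls of 2 of the 59 tested genes of both sets.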

Other observations

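Genes of ISG15 conjugation were on the pathway list, and the following were picked out after their values were seen. UBE2L6, the conjugating enzyme, was at 74.3 ± 5.8 TPM with shScr (SD, n = 3), 96.9 ± 5.2 TPM with shCTDP1-#1 and 61.6 ± 3.6 TPM with shCTDP1-#2. It rose by 0.38 (SE 0.07, adjusted p = 0.00058) with the former and was lower with the latter (-0.27, SE 0.07, adjusted p = 0.0054), while ISG15 itself was highest with shCTDP1-#2. HERC5, the ligase, fell by 0.41 (SE 0.06, adjusted p = 0.0002) with shCTDP1-#1 and was at -0.05 (adjusted p = 0.55) with shCTDP1-#2. UBA7, the activating enzyme, and USP18, the protease that removes ISG15, passed with neither hairpin (UBA7 adjusted p = 0.37 and 0.56, USP18 adjusted p = 0.19 and 0.43), except that USP18 was called higher with shCTDP1-#1 without shCTDP1-#1 replicate 3 (0.41, adjusted p = 0.049).

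EIF2AK2, the kinase PKR that is activated by RNA duplexes, was also picked after its values were seen. Its level was 57.9, 55.5 and 48.7 TPM with shScr, 35.5, 33.2 and 35.2 TPM with shCTDP1-#1 and 49.6, 50.5 and 48.9 TPM with shCTDP1-#2. All shCTDP1-#1 libraries were below all others, as in IFIT2, IFIT3 and OAS3. That was also so for HERC5 and for the distant OAS flank chr12:112856155-112947717, so the pattern was not particular to these genes. The share of all tested intervals with it is not given here. EIF2AK2 fell by 0.62 (SE 0.06, adjusted p = 1.1e-05) with shCTDP1-#1 and was at -0.12 (adjusted p = 0.14) with shCTDP1-#2, which was called after both scalings (-0.21 each) and without shScr replicate 3 (-0.19, adjusted p = 0.014).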
